A study of Mus musculus with 72 samples.

Results

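The livers of newborn male mice of the inbred strains 129S2 and DBA/2J (D2) were compared on the first postnatal day (P1). The comparison was made up of 6 of the 72 arrays of a series on whole brain and whole liver of 3 strains. The stages were E14.5, P1, P7 and P90, the last being animals of 11 to 14 weeks. The 6 arrays were taken by their titles, with 3 for 129S2 and 3 for D2, and 3 P1 livers of C57BL/6J (B6) from the same normalization set were used in the fit and as a further strain. The 129S2 stock had been bought from Charles River in France and the D2 and B6 stocks from The Jackson Laboratory. The newborns were the first generation bred from purchased animals, were sexed by a molecular test and received no treatment. The labels do not say whether the arrays of a group came from separate or pooled animals, so the p-values measure the spread between these arrays. Supplier and strain cannot be told apart.

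Around birth the liver gives up its role as the main blood-forming organ and takes on the metabolic work of the independent animal. Glucose production, ketone production, bile formation and the detoxifying enzymes of the cytochrome P450 superfamily are all switched on in this window, gene by gene. Inbred strains are each fixed for their own set of alleles, so strain differences in the newborn liver can lie in any of these programmes.

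The 9 P1 liver arrays had medians of 6.60 to 6.65 log2 units, and arrays of the same strain correlated at 0.987 to 0.993 across probe sets. Over 100 genes taken from the other liver stages, the 129S2 arrays followed the 129S2 minus D2 difference of those stages with correlations of 0.76 to 0.80, and the D2 arrays opposed it with -0.77 to -0.81. Y-linked Eif2s3y stood 2.52 to 3.51 log2 units above the array medians and Xist between -0.26 and 0.25. The hepatocyte list had mean levels of 12.49 to 12.63 in 129S2 and 12.45 to 12.50 in D2. Albumin (Alb), the main plasma protein, was at 14.87, 14.88 and 14.82 in 129S2 and 14.82, 14.77 and 14.81 in D2. The number of arrays limits the precision.

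All levels below are log2 signals as deposited, each gene being represented by its brightest probe set, and all differences are 129S2 minus D2 on that scale. Calls were made with limma, where the adjusted p had to be under 0.05 and the fold 1.5 or more. Of 12055 genes tested, 687 were called (5.7%), with 386 higher in 129S2 (3.2%) and 301 lower (2.5%). The median difference of all genes tested was 0.01. At an unadjusted p under 0.05, 1786 genes were higher (14.8%) and 1619 lower (13.4%), together 28.2%. A fold of at least 2 was reached by 173 called genes (1.44%), 78 higher and 95 lower, and a fold of at least 4 by 28, of which 12 were higher and 16 lower. In all 687 the 3 values of each strain lay apart from the 3 of the other. The limits on p and fold favour such a separation, here and in the single genes below. Its share over all genes tested was not computed. In 58 the strain with the lower mean was under the level below which genes were left out (6.62), where signal and background are hard to separate. Without D2 replicate 1 the count was 446, and without 129S2 replicate 1 it was 459.

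**Figure D1:**
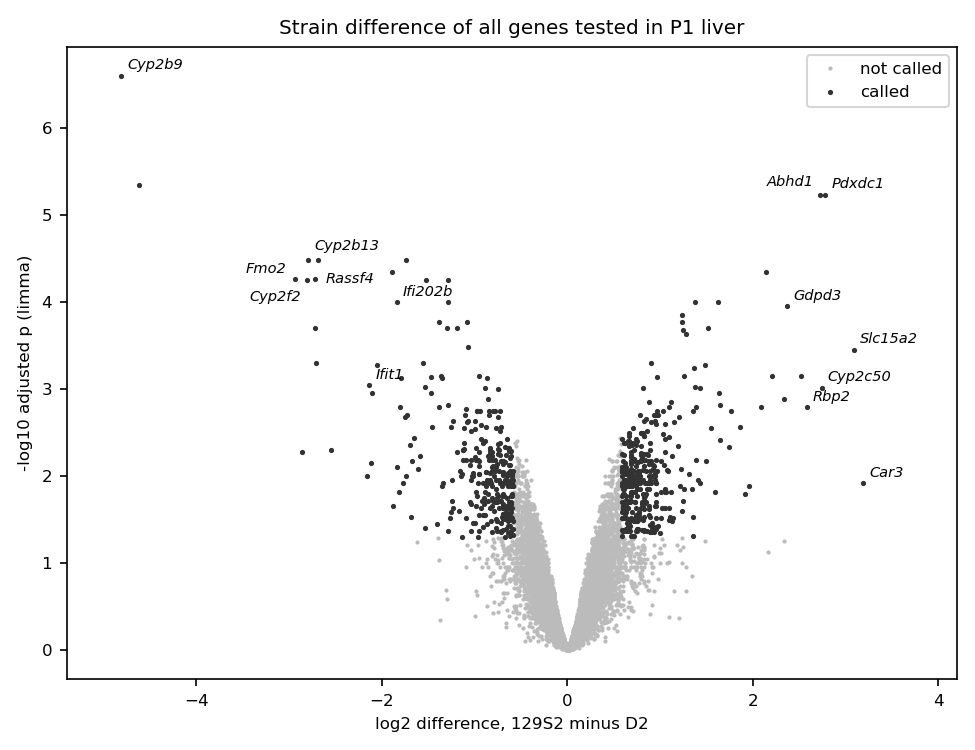
Difference between 129S2 and D2 in P1 liver (horizontal axis, log2) against the size of the limma adjusted p (vertical axis, negative log10) for 12055 genes. Dark points are the 687 called genes and grey points the others; Cyp2b9, at -4.81, lies furthest to the left, and Car3, at 3.19, furthest to the right.

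Cyp2b9 had the largest difference of all. It encodes a cytochrome P450 of the CYP2B subfamily, which in adult mice is known for being higher in female than in male liver. Its levels were 5.77, 5.45 and 5.56 in 129S2 and 10.65, 10.29 and 10.26 in D2, a difference of -4.81 ± 0.13 (SE, 3 against 3 arrays), with an adjusted p of 2.5e-07. The B6 arrays, at 9.84, 10.05 and 9.80, lay close to D2, and the 129S2 arrays stood alone at a level under the filter, so no fold is given. Cyp2b13, its neighbour in the genome, was at 6.45, 6.46 and 6.31 in 129S2 against 8.82, 9.49 and 9.31 in D2 (difference -2.80 ± 0.16, adjusted p 3.3e-05). Cyp2f2, a P450 best known from airway club cells and from the periportal liver, was at 8.93, 8.61 and 9.19 against 12.01, 11.43 and 11.71 (difference -2.81 ± 0.18, adjusted p 5.6e-05). Here B6 lay between the strains for Cyp2b13 (7.25 to 7.48) and for Cyp2f2 (10.82 to 11.15). Cyp2a12, also in that stretch of the genome, differed by only -0.65 ± 0.15, and its call was lost without any of 4 of the 9 arrays in turn, with values from -0.76 to -0.59.

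The P450 list held 12 called genes of 30 tested (40%, beside 5.7% over all genes), 5 higher and 7 lower in 129S2. Its median difference was 0.01, the same as over all genes, with extremes of -4.81 and 2.74. On the higher side, Cyp2c50, a member of the CYP2C cluster of fatty acid and drug oxidases, was at 10.88, 9.87 and 11.07 in 129S2 and 7.73, 8.23 and 7.63 in D2 (difference 2.74 ± 0.29, adjusted p 0.00096). Cyp1a2, which oxidises caffeine and aromatic amines, was at 10.36, 10.29 and 9.83 against 7.76, 7.52 and 7.64 (difference 2.52 ± 0.25, adjusted p 0.0007). Cyp2c23, which makes epoxides of arachidonic acid, was at 11.87, 11.03 and 11.95 against 8.96, 9.71 and 9.17 (difference 2.33 ± 0.26, adjusted p 0.0013). The strains were apart by more than the spread within either of them in each of these genes. B6 sided with D2 for Cyp2c50 (8.09 to 8.45), with 129S2 for Cyp2c23 (11.48 to 11.83), and lay between them for Cyp1a2 (8.33 to 9.39).

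The other called P450 genes are given to complete the list, after their values were seen. Cyp3a13 (1.41 ± 0.26) and Cyp1a1 (1.39 ± 0.22) were higher in 129S2. Ahr, the receptor for aromatic ligands that switches on Cyp1a1 and Cyp1a2, was also higher by 0.60 ± 0.12, close to the fold limit, and lost its call without 129S2 replicate 2 or D2 replicate 3, with values from 0.51 to 0.67. Cyp2c37 (-1.84 ± 0.31), Cyp2c70 (-1.54 ± 0.40) and Cyp3a16 (-1.04 ± 0.14) were lower. Cyp2c37 and Cyp2c50 are members of the same CYP2C cluster, and they differed in opposite directions. For Cyp2c70, an enzyme that makes muricholic bile acids, the call was lost without any of 6 of the 9 arrays in turn, with values from -1.67 to -1.43. Of the abundant constitutive forms, Cyp2e1 (0.21), Cyp3a11 (0.03), Cyp2c29 (-0.30) and Cyp2d10 (0.02) were not called.

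Other genes of xenobiotic and hormone metabolism were among the most different. Fmo2, a flavin-containing monooxygenase, was at 5.95, 5.92 and 5.95 in 129S2 and 8.48, 8.79 and 9.37 in D2 (difference -2.94 ± 0.19, adjusted p 5.4e-05). A second probe set of Fmo2 gave -0.32. Dio1, the deiodinase that activates thyroid hormone, was at 6.5, 7.01 and 6.48 against 8.87, 8.66 and 8.93 (difference -2.16 ± 0.39, adjusted p 0.01). B6 was near 129S2 for Fmo2 (6.09 to 6.27), while for Dio1 it spread from 6.26 to 8.13. Akr1c18, a reductase that inactivates progesterone, was at 8.34, 7.95 and 8.06 in 129S2 and 9.99, 10.56 and 10.14 in D2 (difference -2.12 ± 0.35, adjusted p 0.007). Of its neighbours, Akr1c13 was lower (-1.16 ± 0.20), and Akr1c19, at -1.27 ± 0.31, lost its call without any of 5 arrays in turn, with values from -1.52 to -1.03. The carboxylesterases Ces1g (-1.81 ± 0.21) and Ces1e (-1.19 ± 0.18) were lower in 129S2, and the bilirubin glucuronide exporter Abcc2 differed by -1.25 ± 0.23.

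Among the genes higher in 129S2, Car3, a carbonic anhydrase of liver, fat and muscle, had the largest mean difference and a wide spread. Its levels were 9.78, 10.02 and 11.30 in 129S2, 7.36, 7.62 and 6.56 in D2 and 8.82, 10.24 and 11.34 in B6 (difference 3.19 ± 0.61, adjusted p 0.012). Every 129S2 value was above every D2 value, and a second probe set gave 1.18 without a call. Slc15a2, a peptide transporter, was at 8.26, 8.77 and 8.60 in 129S2 and 5.17, 5.40 and 5.79 in D2 (difference 3.09 ± 0.27, adjusted p 0.00035). B6, at 7.77 to 8.92, was at the 129S2 level. By the mean over its probe sets the difference of Slc15a2 was 1.14 and still called. Rbp2, the cellular retinol-binding protein known from intestine, was at 11.68, 11.16 and 11.45 in 129S2 against 8.44, 8.56 and 9.54 in D2 (difference 2.58 ± 0.30, adjusted p 0.0016), and B6 was at 8.15 to 8.92. Villin (Vil1), an intestinal epithelial gene, did not pass the filter on low values, and of the 4 intestine and stomach genes tested 1 was called, Fabp2, which was lower (-1.05 ± 0.23). The part of carried-over tissue in these results was not tested.

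Abhd1, a member of the alpha/beta hydrolase family, was at 9.69, 9.27 and 9.39 in 129S2 and 6.66, 6.79 and 6.74 in D2 (difference 2.72 ± 0.12, adjusted p 5.8e-06). Gdpd3, a lysophospholipase D, was at 8.64, 9.40 and 9.04 against 6.58, 6.82 and 6.58 (difference 2.37 ± 0.17, adjusted p 0.00011). B6 was at the D2 level for both, at 6.73 to 7.00 and 6.59 to 6.83. Smcp, a sperm mitochondrial protein, was at 7.99, 9.08 and 8.51 in 129S2 and 6.23, 6.65 and 6.44 in D2 (difference 2.09 ± 0.24, adjusted p 0.0016). Pdxdc1 and Zfp277 were apart by 2.78 ± 0.12 and 2.14 ± 0.13 on their brightest probe sets. Not all of their other probe sets gave the same sign. For Pdxdc1 2 of 3 others were called in the same direction, but they ran from -3.70 to 1.91, and the mean over its probe sets was 0.57 and not called. The second probe set of Zfp277 gave -0.42.

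On the lower side, Rassf4, a Ras-association domain protein, was at 7.67, 7.70 and 7.70 in 129S2 and 10.17, 10.24 and 10.81 in D2 (difference -2.72 ± 0.17, adjusted p 5.4e-05), and its 2 other probe sets gave -1.94 and -0.69. Zfp949, a zinc finger gene, was at 6.21, 6.02 and 5.82 against 8.79, 8.88 and 8.51 (difference -2.71 ± 0.25). Dct, the dopachrome tautomerase known from pigment cells, was at 6.62, 6.69 and 6.69 against 9.63, 8.34 and 9.68 (difference -2.55 ± 0.38). Every D2 value was above every 129S2 and B6 value in these 3 genes. Lgals4, a galectin of the gut epithelium, differed by -2.11 ± 0.23, and Wfdc17, a secreted protein of macrophages, by -2.05 ± 0.19. Without exception these 5 genes kept their call when each array was left out in turn.

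**Figure D2:**
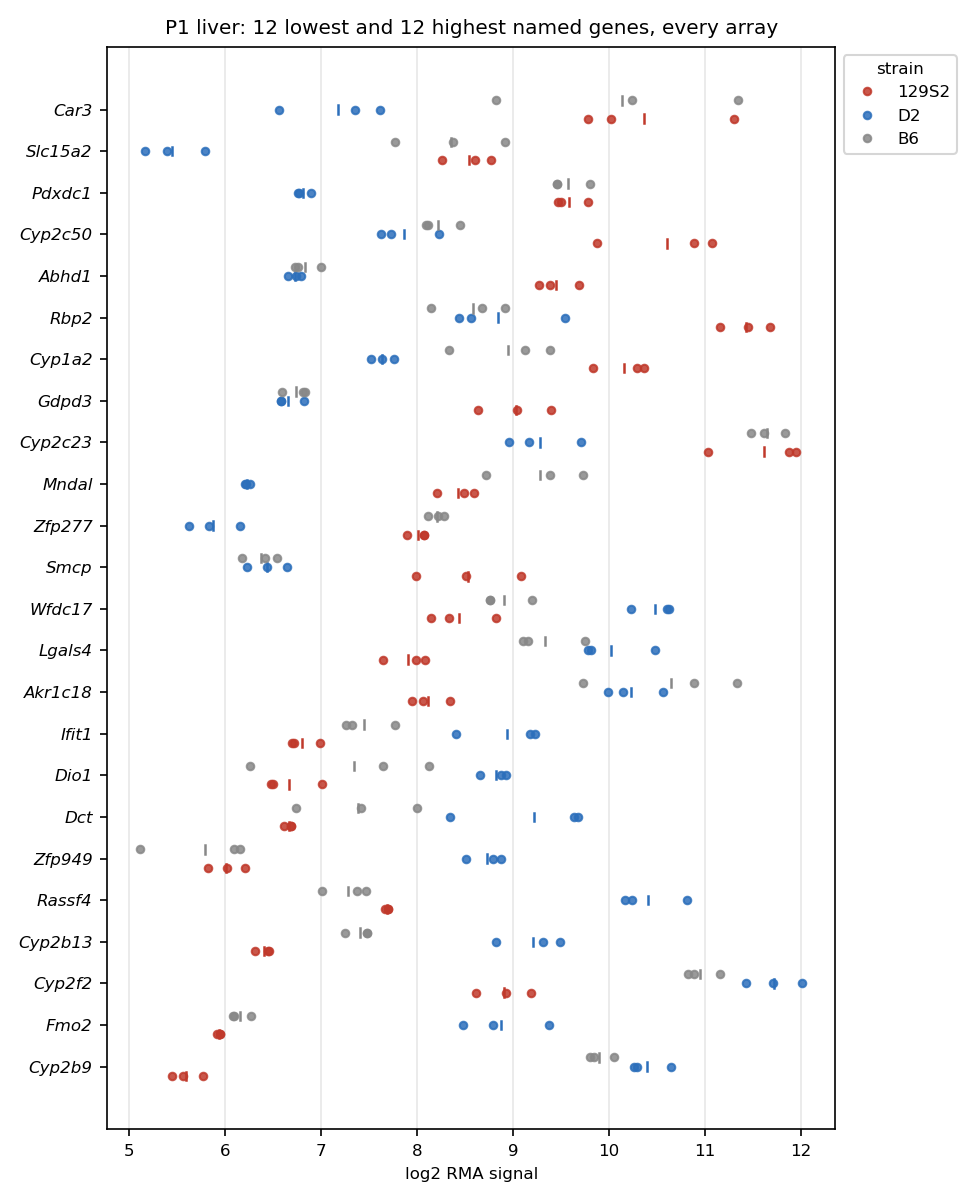
Log2 signal (horizontal axis) of the 12 highest and the 12 lowest called genes by difference, with clone-like symbols left out. Each of the 3 arrays of 129S2, D2 and B6 is a point, and the strain mean is a short line. The 129S2 and D2 points do not overlap in any of the 24 genes, while B6 lies with 129S2 for Slc15a2, with D2 for Abhd1 and between them for Cyp2f2.

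Genes induced by interferon formed the list with the most one-sided calls. Interferons act through STAT and IRF factors on short GAAA repeats in the promoters of antiviral genes, and many of these genes keep a low level without infection. In the interferon-stimulated list 9 of 26 tested genes were lower in 129S2 and none was higher; at an unadjusted p under 0.05 in limma the counts were 17 and 0, beside 13.4% lower and 14.8% higher over all genes. The list's median was -0.49, beside 0.01 over all genes. Its mean level was taken over all 28 members on the array. This level was 7.88 to 7.94 in the 129S2 arrays, 8.34 to 8.65 in the D2 arrays and 7.98 to 8.34 in the B6 arrays. The lists and their genes were chosen with earlier results of these data known, so the count describes the list. With each 129S2 or D2 array left out the median stayed within -0.55 and -0.40, a range that also covers renormalized values and the mean over probe sets.

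The letters GAAANNGAAA, in which N is any base, were looked for on both strands of the promoters of the called interferon genes, from 250 bases before to 50 bases after the start of the gene. The sequences are from RefSeq (GRCm38.p6), printed 5′ to 3′ on the strand of the gene, with matches in capitals, to show the sites at hand beside the expression values. A match on the opposite strand reads TTTCNNTTTC.
Ifit1: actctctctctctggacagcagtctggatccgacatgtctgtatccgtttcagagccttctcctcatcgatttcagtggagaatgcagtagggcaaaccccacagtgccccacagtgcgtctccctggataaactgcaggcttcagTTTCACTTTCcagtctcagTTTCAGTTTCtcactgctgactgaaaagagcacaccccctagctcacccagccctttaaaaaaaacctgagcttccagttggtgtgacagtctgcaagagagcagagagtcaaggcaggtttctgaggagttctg
Ifit3: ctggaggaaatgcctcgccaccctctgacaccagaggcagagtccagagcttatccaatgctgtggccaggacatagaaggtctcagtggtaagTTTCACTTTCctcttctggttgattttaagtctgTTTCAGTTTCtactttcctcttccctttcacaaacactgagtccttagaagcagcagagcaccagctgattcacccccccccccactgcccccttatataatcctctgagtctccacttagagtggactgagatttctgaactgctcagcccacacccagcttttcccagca
Bst2: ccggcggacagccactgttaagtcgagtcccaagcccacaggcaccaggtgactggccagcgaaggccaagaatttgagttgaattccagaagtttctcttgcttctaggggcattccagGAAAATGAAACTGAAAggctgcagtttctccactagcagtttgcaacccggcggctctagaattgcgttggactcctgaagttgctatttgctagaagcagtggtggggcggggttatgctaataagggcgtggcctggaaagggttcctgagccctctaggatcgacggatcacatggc
Ifit1 (chr19:34640639-34640938, plus strand) had matches starting 104 and 85 bases before its start. In Ifit3 (chr19:34583279-34583578, plus strand) they lay 156 and 122 bases before it, and in Bst2 (chr8:71537423-71537722, minus strand) 2 overlapping matches lay at 130 and 124 bases. Of the 9 called genes, 6 had a promoter in the table, and 3 of these held the letters; those of Oasl1, Oasl2 and Xaf1 did not. Of the tested genes of the list that were not called, 8 of 12 held them (66.7%), beside 3.59% of 9742 tested genes with a promoter and 3.44% of all 32851 promoters. The reference sequence is that of B6 and says nothing on the alleles of 129S2 or D2.

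Ifit1, which binds viral RNA, had the largest difference of the list. It was at 6.72, 6.99 and 6.70 in 129S2 and 9.18, 8.41 and 9.23 in D2 (difference -2.14 ± 0.22, adjusted p 0.00089). B6 lay between them at 7.26 to 7.77. Oasl2, an oligoadenylate synthetase-like protein, was at 5.98, 5.58 and 5.94 against 7.06, 6.90 and 7.61 (difference -1.35 ± 0.26, adjusted p 0.013). Xaf1, a partner of the XIAP apoptosis inhibitor, was at 8.15, 8.19 and 8.23 against 9.45, 9.35 and 9.63 (difference -1.29 ± 0.09, adjusted p 0.0001). For Xaf1 B6 was the lowest strain, at 6.56 to 6.71, and for Oasl2 it was at the D2 level, at 6.70 to 7.72. A second probe set of Xaf1 gave -0.11.

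The remaining called members, named after their values were seen, were Parp14 (-1.07 ± 0.09), Ifit3 (-1.02 ± 0.18), Usp18 (-0.91 ± 0.17), Rtp4 (-0.89 ± 0.19), Bst2 (-0.88 ± 0.17) and Oasl1 (-0.69 ± 0.12). Usp18 encodes the protease that shuts off the type I interferon receptor, and Bst2 encodes tetherin, which holds budding virus at the cell surface. Parp14 was at 7.47, 7.57 and 7.55 in 129S2 and at 8.47, 8.58 and 8.75 in D2, with no overlap. Rtp4 alone of the 6 lost its call, without 129S2 replicate 1, D2 replicate 1 or D2 replicate 3, with values from -1.0 to -0.74. Members that were not called included the transcription factor Irf7 (-0.59, adjusted p 0.062), Oas1a (-0.48), Rsad2 (-0.21), Stat2 (-0.09) and Oas3 (0.08).

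**Figure D3:**
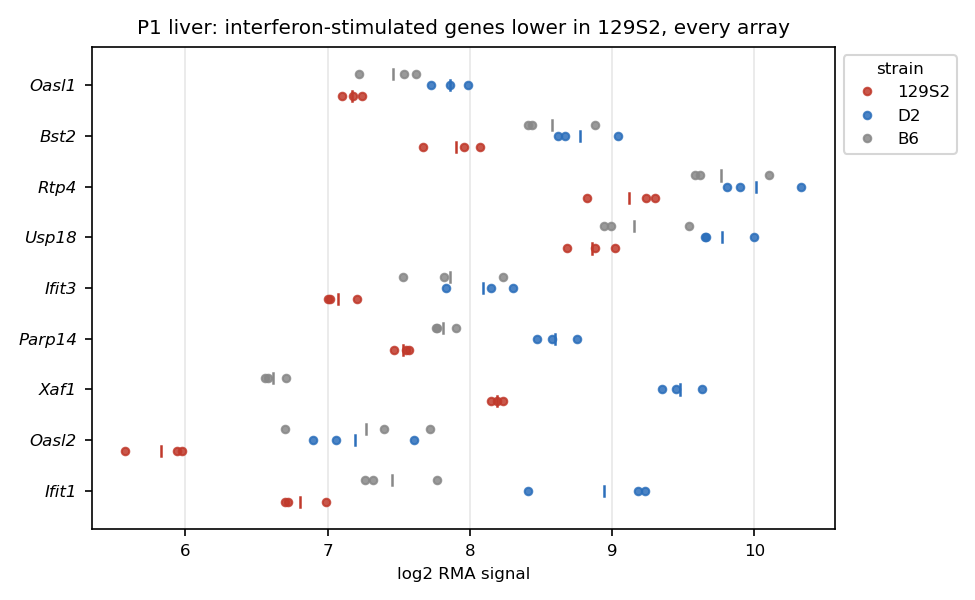
Log2 signal (horizontal axis) of the 9 interferon-stimulated genes lower in 129S2, one point for each array of 129S2, D2 and B6 and a short line at the strain mean. In every gene the 3 points of 129S2 lie to the left of the 3 points of D2, from Ifit1 at -2.14 to Oasl1 at -0.69, whereas B6 is the lowest strain for Xaf1.

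The larger gene families that respond to interferon were split. Of 17 tested genes of the Ifi200, Gbp, Irg and Trim30 families, 2 were higher and 5 lower in 129S2, with a list median of -0.68. The share called was 41.2%, beside 5.7% over all genes. Mndal, an Ifi200 gene encoding a nuclear DNA-binding protein, was at 8.21, 8.59 and 8.49 in 129S2 and 6.22, 6.21 and 6.26 in D2 (difference 2.20 ± 0.22, adjusted p 0.0007), and a second probe set gave 5.06. Ifi202b, from the same gene cluster, went the other way, at 6.52, 7.00 and 6.86 against 8.69, 8.46 and 8.73 (difference -1.84 ± 0.13, adjusted p 0.0001). B6 was lowest for Ifi202b, at 4.97 to 5.13, and highest for Mndal, at 8.72 to 9.73. Members of this cluster are alike in sequence and their probe sets may pick up more than 1 gene.

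The guanylate-binding proteins are GTPases that attack the vacuoles of intracellular pathogens. Gbp2 was at 7.76, 7.62 and 7.44 in 129S2 and 9.63, 8.87 and 9.53 in D2 (difference -1.74 ± 0.31, adjusted p 0.01), and a second probe set was called too, at -1.55. Its promoter (chr3:142620413-142620712, plus strand, RefSeq GRCm38.p6) is printed because the letters searched for above occur in it 59 bases before the start. In these families 2 of 4 lower genes with a promoter held them, Gbp2 and Gbp7, while Ifi202b and Ifi209 did not, and 8 of 8 genes that were not called held them.
Gbp2: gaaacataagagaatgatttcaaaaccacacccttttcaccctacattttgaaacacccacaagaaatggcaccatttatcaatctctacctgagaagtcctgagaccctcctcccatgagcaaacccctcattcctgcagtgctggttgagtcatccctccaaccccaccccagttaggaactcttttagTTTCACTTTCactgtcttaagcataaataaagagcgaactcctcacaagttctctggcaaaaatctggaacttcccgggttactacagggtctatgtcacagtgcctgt
Gbp7 (-1.26 ± 0.29), Iigp1 (-1.41 ± 0.36) and Ifi209 (-1.14 ± 0.32) were lower and Gbp2b (1.10 ± 0.15) was higher, named after their values were seen. The calls of Gbp7, Iigp1 and Ifi209 were lost without 5, 4 and 6 of the 9 arrays in turn, with values from -1.41 to -1.08, -1.73 to -1.23 and -1.44 to -0.83, and the list's count of lower genes fell to 2 without 129S2 replicate 1, D2 replicate 1 or D2 replicate 3. Gbp6, at -1.40 with an adjusted p of 0.051, was not called.

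Genes of antigen presentation differed in both directions, with 3 higher and 2 lower of 20 tested and a median of -0.22. The share called was 25%, beside 5.7% over all genes. Nlrc5, the transactivator of class I genes, was at 6.09, 5.84 and 6.19 in 129S2 and 7.31, 7.04 and 7.08 in D2 (difference -1.10 ± 0.13, adjusted p 0.002). The peptide transporter Tap1 differed by -0.66 ± 0.12 and lost its call without 129S2 replicate 2 (values from -0.77 to -0.57). On their brightest probe sets 3 class I genes were called higher. H2-Q10, a secreted liver class I protein, was at 13.18, 12.91 and 13.04 against 11.92, 12.39 and 12.17 (difference 0.89 ± 0.13, adjusted p 0.0041). H2-K1 (0.73 ± 0.18) and H2-D1 (0.89 ± 0.24) were called on probe sets that can match more than 1 class I gene, and both lost the call without any of 4 and 7 arrays in turn (values from 0.53 to 0.85 and 0.64 to 1.12). The 6 other probe sets of H2-D1 ran from -4.48 to 0.85, and their mean with the first was -0.94. The 2 strains carry different H2 haplotypes, so class I levels read by probe cannot be set side by side as levels of 1 gene.

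In the metabolic lists of this and the next 3 paragraphs 8.7% to 13.6% of the tested genes were called, beside 5.7% over all genes. Several of these lists had a median above 0. The gluconeogenesis and amino acid list had a median of 0.47, with 19 of 23 tested members above 0 and 2 called, both higher. Over all genes 6157 of 12055 lay above 0. Fbp1, the fructose bisphosphatase of gluconeogenesis, was at 14.35, 14.24 and 14.32 in 129S2 and 13.40, 13.71 and 13.73 in D2 (difference 0.69 ± 0.10, adjusted p 0.0053). Gnmt, the glycine methyltransferase, was at 13.69, 13.77 and 13.47 against 12.74, 12.94 and 12.82 (difference 0.81 ± 0.20, adjusted p 0.032). Neither gene overlapped between the strains, but the call of Gnmt was lost without any of 6 arrays in turn (values from 0.75 to 0.90) and that of Fbp1 without D2 replicate 1 (values from 0.58 to 0.75). Got1 (2.34 ± 0.68, adjusted p 0.055), Tat (1.28 ± 0.62, adjusted p 0.21), G6pc (0.93 ± 0.28, adjusted p 0.062) and Pck1 (0.42 ± 0.32, adjusted p 0.43) were not called.

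Cholesterol synthesis genes had a median of 0.38, with 17 of 20 above 0 (6157 of 12055 over all genes) and 2 called. Hsd17b7 (0.96 ± 0.18) and Sc5d (1.05 ± 0.21), enzymes of late sterol synthesis, were higher in 129S2. Sc5d had 2 other probe sets at 0.04 and 0.37, and the mean over its probe sets was 0.49 and not called. In fatty acid and triglyceride synthesis (median 0.21) Me1 (1.05 ± 0.21) and Fads2 (0.90 ± 0.24) were higher of 22 tested. Calls were lost without 129S2 replicate 1 for Hsd17b7 (values from 0.79 to 1.09), without this array or D2 replicate 1 for Sc5d and Me1 (0.92 to 1.17 and 0.92 to 1.25), and without any of 7 arrays in turn for Fads2 (0.65 to 1.09).

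Fatty acid oxidation and ketogenesis had 2 higher and 2 lower of 31 tested, with a median of -0.04. Acaa1a, a peroxisomal thiolase, was at 9.79, 10.13 and 10.03 in 129S2 and 10.92, 11.01 and 10.94 in D2 (difference -0.97 ± 0.12, adjusted p 0.0018), and a second probe set was called at -0.65. Vnn1, a pantetheinase, was at -0.72 ± 0.19, and Decr2 (0.77 ± 0.19) and Cyp4a31 (0.75 ± 0.20) were on the other side. The last 3 calls were lost without 7, 4 and 7 arrays in turn (values from -0.88 to -0.50, 0.62 to 0.92 and 0.63 to 0.82). The rate-setting carnitine palmitoyltransferase Cpt1a was at 0.56 ± 0.20 and was not called.

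In bile acid synthesis and transport 1 gene was higher and 2 were lower of 22 tested (median 0.09). Slc10a1, the sodium-dependent bile acid importer, was at 13.32, 12.91 and 13.17 in 129S2 and 11.78, 12.01 and 12.58 in D2 (difference 1.01 ± 0.20, adjusted p 0.015), and a second probe set was called at 1.33. Abcc2 and Amacr, a racemase of bile acid side chains (-0.76 ± 0.16), were lower, while Cyp7a1, the rate-limiting enzyme of bile acid synthesis, was at 1.24 ± 0.35 with an adjusted p of 0.051. Calls were lost without 4 and 3 arrays in turn for Slc10a1 (values from 0.84 to 1.24) and Amacr (-0.93 to -0.63). In glycolysis and glycogen (2 higher of 22, median 0.13) the glucose transporter Slc2a1 was at 10.52, 11.11 and 10.67 against 9.77, 9.41 and 9.33 (difference 1.26 ± 0.25), with 2 further probe sets called at 1.22 and 1.37. That call was lost without D2 replicate 2 (values from 1.09 to 1.39), and the call of Gbe1 (0.72 ± 0.20) without any of 7 arrays in turn (0.67 to 0.77). Slc25a13, the aspartate carrier, was the called gene of the 9 urea cycle genes tested (0.95 ± 0.23, median 0.23) and lost its call without any of 4 arrays in turn (0.79 to 1.12).

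Secreted plasma proteins differed gene by gene. Complement had 3 higher and 1 lower of 23 tested (17.4% called, beside 5.7% over all genes, median 0.16). C8b, a chain of the membrane attack complex, was at 10.75, 11.09 and 11.06 in 129S2 and 10.02, 9.93 and 10.17 in D2 (difference 0.93 ± 0.11, adjusted p 0.002). Hc, which encodes complement C5 and has a known null allele in D2, was at 12.70, 12.38 and 12.69 against 12.05, 11.89 and 11.56 (difference 0.76 ± 0.15, adjusted p 0.012). The other higher gene, Masp2 (0.66 ± 0.17), lost its call without any of 7 arrays in turn (values from 0.49 to 0.85). C9 was lower, at -0.90 ± 0.19, and lost its call without 129S2 replicate 1 (values from -1.04 to -0.68).

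Acute phase proteins had 2 higher and 2 lower of 18 (22.2% called, beside 5.7% over all genes, median -0.03). Saa4, the constitutive serum amyloid A, was at 8.98, 8.44 and 9.17 in 129S2 and 10.55, 10.49 and 10.63 in D2 (difference -1.70 ± 0.24, adjusted p 0.0044), and a second probe set gave 0.02. Serpina3n, also the called gene of the 14 serpins tested (list median -0.04), was higher by 1.13 ± 0.28, and Fgl1 was higher by 0.60 ± 0.10. Steap4 was at -0.66 ± 0.16. Calls were lost without 5, 2 and 6 arrays in turn for Serpina3n (values from 0.80 to 1.45), Fgl1 (0.55 to 0.63) and Steap4 (-0.73 to -0.58). Hamp, the iron hormone hepcidin, was at 12.72, 7.99 and 13 in 129S2 and 12.21, 13.04 and 12.58 in D2, and its neighbour Hamp2 was at 9.58, 6.71 and 9.82 against 9.75, 10.35 and 9.91. Array 129S2 replicate 2 was thus far below all others for both, and neither was called. Of the iron genes (1 higher of 24, median 0.10) the ferritin heavy chain Fth1 was at 0.75 ± 0.15 and lost its call without 129S2 replicate 1 or D2 replicate 1 (0.57 to 0.88).

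In the apolipoprotein and lipid transport list 3 of 26 were lower and none was higher, with a median of -0.01. At an unadjusted p under 0.05 in limma 5 were lower and 2 higher, beside 13.4% and 14.8% over all genes. The called genes were Saa4, Fabp2 and Fabp7, the last a fatty acid-binding protein known from brain, at 6.23, 6.09 and 5.56 in 129S2 and 7.46, 7.42 and 7.38 in D2 (difference -1.46 ± 0.19, adjusted p 0.0027). Fabp2 lost its call without any of 3 arrays in turn (values from -1.25 to -0.91). Conjugation enzymes had 2 lower of 33 (median -0.06), Gsta2 (-1.69 ± 0.41) and Ugt2b1 (-0.72 ± 0.18), both lost without any of 5 arrays in turn (-1.85 to -1.46 and -0.84 to -0.61). Of NRF2 targets, 2 of 20 were higher (median 0.22), Me1 and Gclm, a subunit of the enzyme that limits glutathione synthesis. Gclm was at 11.39, 11.31 and 11.64 against 10.10, 9.72 and 10.84 (difference 1.23 ± 0.28), and its second probe set was called at 1.26, although the first lost its call without any of 4 arrays in turn (0.98 to 1.54).

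**Figure D4:**
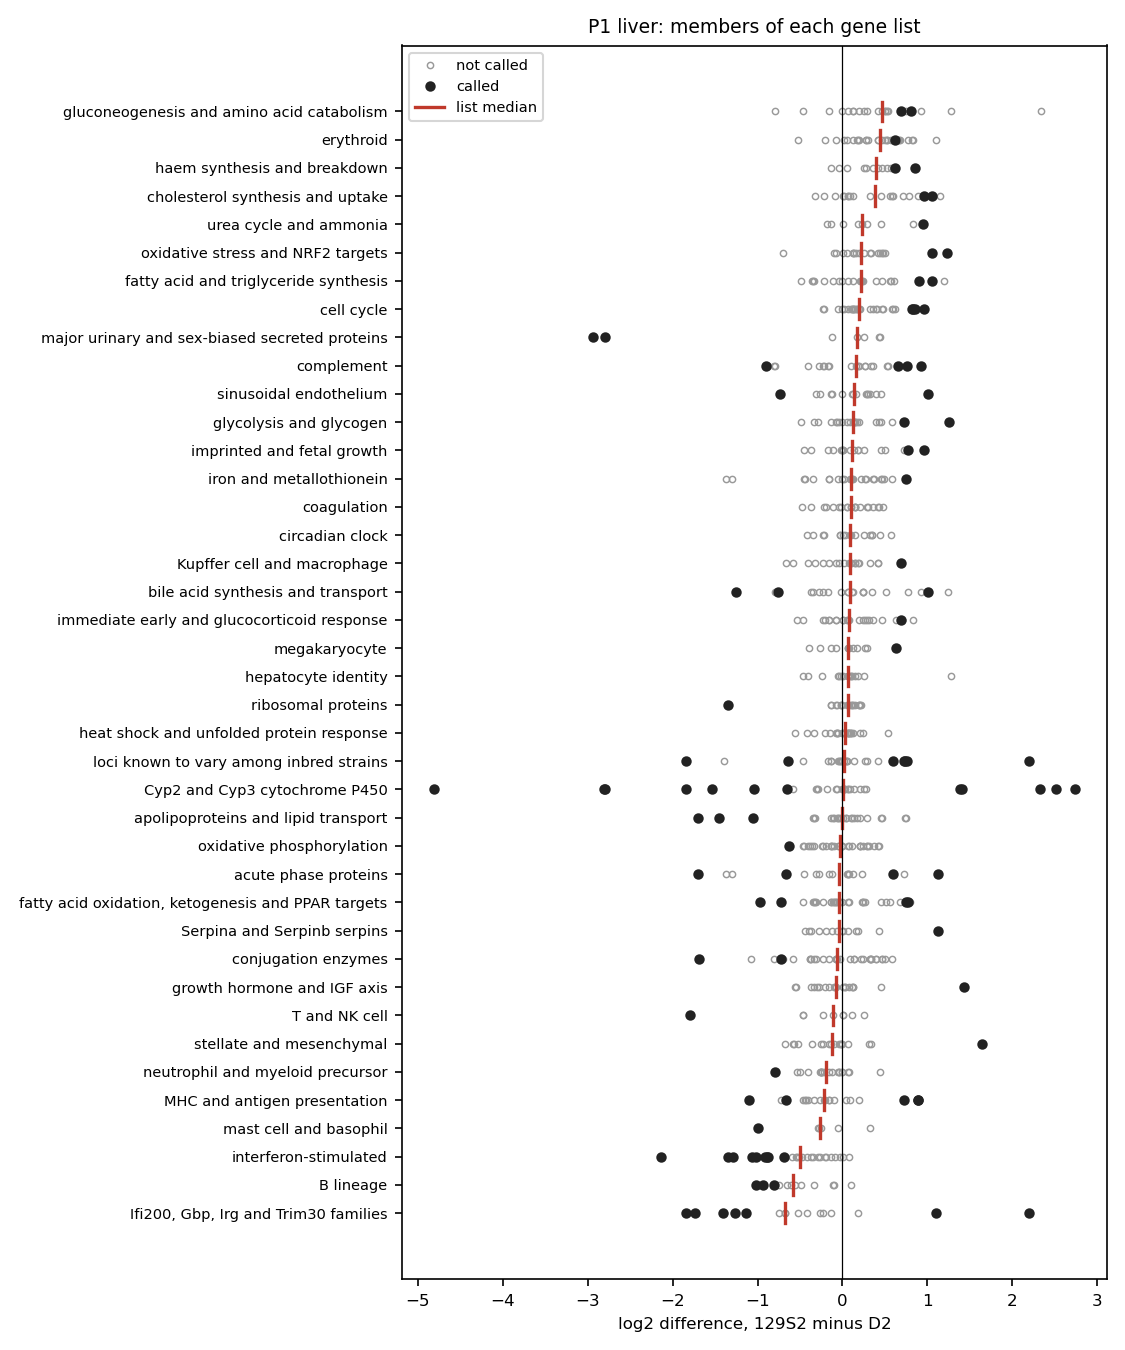
Differences between 129S2 and D2 (horizontal axis, log2) of the tested members of each gene list with at least 5 of them, in order of the list median (red line). Filled points are called genes; the interferon-stimulated list has 9 filled points, all left of 0, and the cytochrome P450 list has 12, from -4.81 to 2.74.

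Blood-forming and immune cells still make up a large part of the P1 liver. In whole tissue, fewer cells of a type and less RNA per cell cannot be told apart. B lineage genes had a median of -0.58, with 3 of 12 lower in 129S2 and none higher (at an unadjusted p under 0.05 in limma 6 were lower and 0 higher, beside 13.4% and 14.8% over all genes). Over all 15 members on the array the list's mean level was 7.29 to 7.49 in 129S2, 7.71 to 7.97 in D2 and 7.87 to 8.19 in B6. Cd79b, a chain of the B cell receptor, was at 7.75, 7.87 and 7.62 against 8.74, 8.63 and 8.66 (difference -0.93 ± 0.13, adjusted p 0.0037). Ighm, the heavy chain of IgM, was at 9.14, 9.53 and 9.56 against 10.82, 10.12 and 10.33 (difference -1.02 ± 0.18, adjusted p 0.0099). Its 3 other probe sets ran from -0.91 to 0.12, and the mean over its probe sets was -0.15 and not called. Ms4a1, which encodes CD20, differed by -0.81 ± 0.16 and lost its call without D2 replicate 1 (values from -0.91 to -0.65). The surrogate light chain gene Vpreb1 (-0.56) and the recombinase gene Rag1 (-0.65) were not called.

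Erythroid genes had a median of 0.45, with 25 of 28 tested genes above 0, beside 6157 of 12055 over all genes. Of them 1 was called, the haem enzyme Cpox (0.62 ± 0.14). At an unadjusted p under 0.05 in limma, 12 were higher and 0 lower, beside 14.8% and 13.4% over all genes. The call of Cpox was lost without any of 4 arrays in turn (0.51 to 0.76), and by the mean over its probe sets it was at 0.12 and not called. The erythroid list's mean level was taken over all 30 members on the array. This level was 10.68 to 11.01 in 129S2, 10.16 to 10.68 in D2 and 9.72 to 10.57 in B6, so the strains met at their edges. Haem synthesis and breakdown, which shares Cpox, had a median of 0.39 and 2 of 12 higher, the other being the biliverdin reductase Blvrb, at 11.65, 11.81 and 11.71 against 10.92, 10.58 and 11.09 (difference 0.86 ± 0.16, adjusted p 0.012). Cell cycle genes had 4 of 30 higher and none lower, with a median of 0.20. At an unadjusted p under 0.05 in limma 9 were higher and 0 lower, beside 14.8% and 13.4% over all genes. Over all 31 members on the array the list's mean levels were 10.08 to 10.30 in 129S2 and 9.71 to 10.04 in D2. Ube2c, which feeds the anaphase-promoting complex, was at 12.06, 12.17 and 12.16 against 11.18, 11.04 and 11.30 (difference 0.96 ± 0.12, adjusted p 0.0025). The mitotic kinesin Kif20a was higher by 0.85 ± 0.15, while the calls of Ccnb2 (0.83 ± 0.19) and Aurkb (0.82 ± 0.17) were lost without any of 5 and 4 arrays in turn (0.67 to 1.01 and 0.66 to 0.99). Mki67 was at 0.13 and not called. The part of the proportion of erythroid precursors in the cell cycle values was not tested.

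The lists of other immune cells held 1 call each. This was 5% of the neutrophil and of the macrophage genes tested, beside 5.7% over all genes. It was 11.1% for T and natural killer cells, 16.7% for basophils and mast cells and 8.33% for megakaryocytes. Gzma, a granzyme of natural killer cells, was lower in 129S2, at 6.53, 6.37 and 6.25 against 8.31, 7.81 and 8.40 in D2, with B6 highest at 9.93 to 10.42 (difference -1.79 ± 0.18, adjusted p 0.00075). It was the called gene of the 9 T and natural killer cell genes tested, a list with a median of -0.11. The list's mean level was taken over all 15 members on the array, of which 9 were above the filter. This level was 6.45 to 6.56 in 129S2, 6.72 to 6.77 in D2 and 7.10 to 7.26 in B6. Of the basophil and mast cell list, Mcpt8 was lower (-0.99 ± 0.20, 1 of 6, median -0.26), and of the neutrophil list, Ctsg (-0.80 ± 0.17, 1 of 20, median -0.19). Mcpt8 lost its call without 129S2 replicate 3 (values from -1.14 to -0.79), and Ctsg without that array or D2 replicate 1 (-1.01 to -0.63). Folr2, of macrophages (0.69 ± 0.15, 1 of 20, median 0.09), and Tubb1, of megakaryocytes (0.63 ± 0.15, 1 of 12, median 0.07), were higher and lost their calls without 3 and 5 arrays in turn (0.53 to 0.85 and 0.53 to 0.82).

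Sinusoidal endothelium had 1 gene each way of 16 (median 0.14). Clec4g, a lectin of these cells, was at 9.36, 9.49 and 9.24 in 129S2 and 10.07, 10.08 and 10.10 in D2 (difference -0.73 ± 0.11, adjusted p 0.0057). By the mean over its probe sets Clec4g was at -0.37 and not called. Lyve1, the hyaluronan receptor, was at 1.01 ± 0.24, with a second probe set at 0.43, and lost its call without any of 5 arrays in turn (0.89 to 1.14). In the stellate and mesenchymal list (1 of 18, median -0.12) the pericyte gene Rgs5 was at 8.19, 8.50 and 7.90 against 6.65, 6.46 and 6.56 (difference 1.64 ± 0.19, adjusted p 0.0015), and at 0.97 by the mean over its probe sets. The hepatocyte list had no call among 17 tested genes in limma, with a median of 0.06. At an unadjusted p under 0.05 it also had 0, beside 28.2% of all genes. The cholangiocyte (3), pancreatic acinar (4), skeletal muscle (4), adrenal and kidney (4) and adipocyte (3) genes tested likewise had 0 called and 0 at an unadjusted p under 0.05.

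Growth and developmental genes included 2 imprinted or fetal genes of 18 that were higher in 129S2 (median 0.12). Gpc3, a glypican that restrains growth, was at 12.49, 12.29 and 11.94 against 11.19, 11.15 and 11.52 (difference 0.96 ± 0.15, adjusted p 0.0065), and the imprinted gene Mest was at 10.85, 10.88 and 10.80 against 10.04, 10.03 and 10.15 (difference 0.77 ± 0.13, adjusted p 0.0088). Alpha-fetoprotein (Afp) was level at 0.09 ± 0.07 and not called. In the growth hormone and IGF list (1 of 20, median -0.08) the carrier protein Igfbp3 was at 10.95, 10.93 and 10.90 in 129S2 and 9.49, 9.75 and 9.26 in D2 (difference 1.43 ± 0.27, adjusted p 0.012), and a second probe set was called at 1.46.

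Of 32 oxidative phosphorylation genes, Ndufa2 was lower (-0.63 ± 0.09, list median -0.03), with its call lost without 129S2 replicate 1 (values from -0.67 to -0.58), and of 19 ribosomal protein genes, Rpl14 (-1.35 ± 0.14, list median 0.06). Of 24 immediate early and glucocorticoid genes, Dusp1 was called (0.69 ± 0.19, list median 0.07), and lost its call without any of 7 arrays in turn (0.60 to 0.76). Among 7 tested genes of the urinary protein and sex-biased list 2 were lower, Fmo2 and Cyp2b13 (median 0.17). Coagulation (21 tested, median 0.10), the circadian clock (17, median 0.09) and heat shock and unfolded protein response (23, median 0.03) had 0 called in limma, with 7, 5 and 2 genes at an unadjusted p under 0.05, where 28.2% of all genes lay. Among 25 genes at loci known to vary between inbred strains, 5 were higher and 2 lower (28% called, beside 5.7% over all genes, median 0.02). They were Mndal, Hc, Ahr, Lypla1 (0.72 ± 0.11) and Glo1 (0.74 ± 0.11) on the higher side and Ifi202b and Fcgr4 (-0.64 ± 0.14) on the lower. Fcgr4 lost its call without any of 4 arrays in turn (-0.75 to -0.51).

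Called genes were in places neighbours. Of 11492 pairs of tested genes next to each other within 1 Mb, 55 had both genes called, 42 of them in the same direction, and 6 runs of at least 3 were found. With 5.7% of all genes called, some pairs arise without any clustering. How many, and how often all neighbours share a sign, was not computed, so the counts only describe positions. The P450 run of Cyp2b13, Cyp2b9, Cyp2a12 and Cyp2f2, the run of Akr1c18, Akr1c13 and Akr1c19, and the run of Olfml2b (-0.89 ± 0.09), Atf6 (-0.75 ± 0.08) and Dusp12 (-0.61 ± 0.13) were lower in 129S2. The run of H2-D1, H2-Q5 (0.98 ± 0.25) and H2-Q10, that of Abca6 (1.25 ± 0.27), Abca5 (0.66 ± 0.11) and Map2k6 (0.73 ± 0.18), and that of Ttc39a (0.74 ± 0.14), Rnf11 (0.70 ± 0.14) and Cdkn2c (0.60 ± 0.15) were higher. The P450, Akr1c, class I and Abca genes in these runs are related genes and can share probe signal. Except for Olfml2b and Atf6, the genes first named here lost their call without at least 1 array, with values from -0.71 to -0.49 for Dusp12, 0.63 to 1.22 for H2-Q5, 1.03 to 1.47 for Abca6, 0.56 to 0.77 for Abca5, 0.62 to 0.88 for Map2k6, 0.62 to 0.85 for Ttc39a, 0.58 to 0.77 for Rnf11 and 0.43 to 0.75 for Cdkn2c. By the mean over probe sets Atf6 was at -0.26 and not called.

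The B6 livers placed the differences between the other strains. Of the 386 genes higher in 129S2, the B6 mean was nearer to 129S2 in 284 and nearer to D2 in 102. Of the 301 lower genes it was nearer to 129S2 in 187 and to D2 in 114. In 245 of the higher and 203 of the lower genes the B6 mean lay between the means of the other strains. Across probe sets B6 arrays correlated at 0.981 to 0.989 with 129S2 arrays and at 0.968 to 0.986 with D2 arrays. The position of B6 over all genes tested was not counted, so these counts are not particular to the called genes. The B6 arrays were part of the fit and had no part in the difference itself.

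The same strains were next compared in the other livers, each set of which had been normalized apart. The arrays of the other stages are other animals, so each comparison stands on its own. The 12055 genes and their probe sets were those chosen in P1 liver, and the filter was not applied again. Genes above the filter only at another stage were thus not tested, and the shares called do not rank the stages. With the same limits on p and fold 313 genes were called at E14.5 (2.6%), 726 at P7 (6.02%) and 751 at P90 (6.23%). Called in the same direction as at P1 were 115 genes at E14.5 (16.7% of the P1 list and 36.7% of the E14.5 list), 195 at P7 (28.4% and 26.9%) and 156 at P90 (22.7% and 20.8%), and 2, 10 and 14 were called in the opposite direction. Of the 687 genes, 402 were called in the same direction at none of the other liver stages, 155 at 1, 79 at 2 and 51 at all 3. The sign of the P1 difference was kept in 65.9%, 83.8% and 70% of the P1 calls at E14.5, P7 and P90, and in 50.5%, 60.9% and 55.8% of the genes that were not called. Missing a threshold at another stage does not show that the difference was absent there.

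Whether the strain difference itself changed with stage was tested as an interaction over the 4 stages, with a gap of at least 2-fold between stages. It was called in 782 genes (6.49%) and in 251 of the 687 genes called at P1 (36.5%). The P1 difference is part of this test and the 687 were chosen by its size. The higher share among them therefore says nothing further about these genes. The sets had been normalized apart, and a scale that differs between them could change such a result. With all 36 liver arrays quantile normalized together, 786 genes were called.

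**Figure D5:**
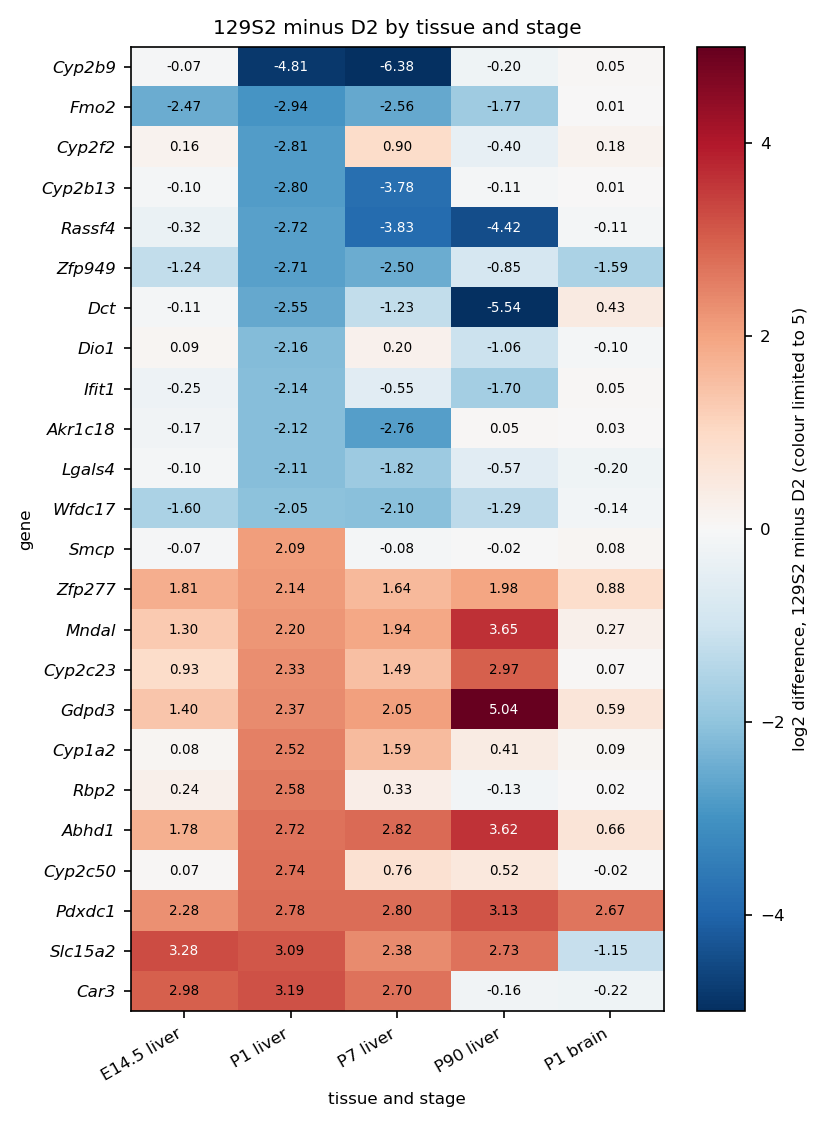
Difference between 129S2 and D2 (colour and printed value, log2) of the 24 named genes with the highest and lowest differences in P1 liver (vertical axis). The columns are E14.5, P1, P7 and P90 liver and P1 brain (horizontal axis). Slc15a2 is above 2 at every liver stage and at -1.15 in brain, and Cyp2b9 is low at P1 and P7 and near 0 in the other columns.

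Cyp2b9 was at -0.07 at E14.5, -6.38 at P7 and -0.20 at P90, and Cyp2b13 was at -0.10, -2.80, -3.78 and -0.11 from E14.5 to P90. The interaction had an adjusted p of 2.9e-17 for Cyp2b9 and 1.1e-10 for Cyp2b13. Cyp2f2 turned from -2.81 at P1 to 0.90 at P7 (adjusted p 7.7e-12), and Cyp2a12, in the same run, went from -0.65 to 1.37 (adjusted p 3.8e-09). At P7 Cyp2b9 and Cyp2b13 kept the P1 direction, Cyp2b10 was at -0.31 at P1 and 0.04 at P7 and called at neither, and Cyp2f2 and Cyp2a12 were called in the opposite one. Smcp and Rbp2 were called at P1 and at no other liver stage, with Smcp at -0.07, -0.08 and -0.02 and Rbp2 at 0.24, 0.33 and -0.13 at E14.5, P7 and P90 (interaction adjusted p 4.3e-08 and 4.8e-07). Cyp1a2 (1.59) and Cyp2c50 (0.76) were higher in 129S2 at P7 too, and at P90 were at 0.41 and 0.52. Car3 was higher at E14.5 (2.98), P1 and P7 (2.70) and was at -0.16 at P90 (adjusted p 0.0054).

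Among the 12 genes highest in 129S2, 7 were called in the same direction at all 3 other liver stages, namely Slc15a2, Pdxdc1, Abhd1, Gdpd3, Cyp2c23, Mndal and Zfp277. Gdpd3 was at 1.40 at E14.5, 2.05 at P7 and 5.04 at P90 (interaction adjusted p 1.3e-13). Among the 12 lowest named genes, Fmo2, Zfp949 and Wfdc17 were called throughout. Rassf4 went from -0.32 at E14.5 through -3.83 at P7 to -4.42 at P90, and Dct reached -5.54 at P90. Cox6b2, a testis form of a cytochrome oxidase subunit, was at -0.44, 1.12, 2.93 and 3.84 from E14.5 to P90, and Ankrd33b, an ankyrin repeat gene, at -0.21, -0.99, -1 and -3.68, although by the mean over its probe sets Ankrd33b was at -0.04 at P1 and not called. Efemp1, an extracellular matrix protein, was lower at P1 (-1.75 ± 0.22) and higher at P90 (0.83). Dio1 was at 0.20 at P7 and -1.06 at P90, and Akr1c18 was at -2.76 at P7 and 0.05 at P90.

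The interferon genes differed in their calls by age. At E14.5 no gene of the list was called in limma (1 higher and 7 lower at an unadjusted p under 0.05, beside 1132 and 896 of all 12055 genes) and the median was -0.11, while 12 of 26 were lower at P7 (median -0.69) and 16 at P90 (median -0.78). Ifit3 was at -0.10, -1.02, -0.99 and -0.99 from E14.5 to P90, Parp14 at -0.18, -1.07, -1.03 and -0.75, and Oasl1 at 0.05, -0.69, -0.37 and -2. Ifit1, at -0.25 at E14.5, -0.55 at P7 and -1.70 at P90, was called at P1 and P90. For Ifit1 the interaction with stage had an adjusted p of 0.00028, and for Xaf1 and Oasl2, at 0.072 and 0.071, no change with stage was called. With the 36 liver arrays quantile normalized together Oasl2 was called (gap 1.17, adjusted p 0.047). The Ifi200, Gbp, Irg and Trim30 families had 2 higher and 2 lower genes of 17 at E14.5, 1 and 7 at P7, and 1 and 8 at P90. Their medians were -0.08, -1.27 and -0.55. Over all 12055 genes 187 were called higher and 126 lower at E14.5, 410 and 316 at P7, and 365 and 386 at P90. The B lineage list had medians of 0.11, -0.04 and -0.06 at these stages.

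The brains of the same age served as the comparison between tissues. For liver and brain arrays with the same strain and number, deviations from the group means correlated at 0.32 to 0.40 in 129S2 and 0.17 to 0.23 in D2. In B6 the correlations were 0.29, -0.02 and -0.13. The labels do not say whether such arrays came from the same animals. In P1 brain 102 genes were called (0.846%), of which 47 had been called in the same direction in P1 liver (6.84% of the liver list and 46.1% of the brain list) and 4 in the opposite direction. Here too the genes and probe sets were those chosen in P1 liver. Genes above the filter only in brain were not tested, so the shares called in the 2 tissues cannot be compared. A difference between the tissues of at least 2-fold was called in 201 genes (1.67%), of which 174 were called in P1 liver (25.3%). This test also holds the P1 liver difference by which those genes were chosen, so that share is raised by the choice. Genes called in both tissues included Pdxdc1 (2.78 in liver and 2.67 in brain), Rpl14 (-1.35 and -1.75), Zfp949 (-2.71 and -1.59) and Akr1c19 (-1.27 and -1.12). Slc15a2 was opposed, at 3.09 in liver and -1.15 in brain (interaction 4.24, adjusted p 5.6e-07), and so were Dusp12 (-0.61 and 0.67) and Decr2 (0.77 and -0.75). Called in all 4 other sets with the P1 liver direction were 23 genes.

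Most called genes had no second reading. Of the 687, 279 had a second probe set above the filter. It was called in the same direction in 58 (20.8%) and had the same sign in 210 (75.3%). By the mean over all probe sets of a gene, 19 of the 99 named genes lost their call or changed sign. Beside those given above they were Abca5 (0.20), Dusp12 (-0.46), Rnf11 (0.50), H2-Q5 (0.55), Fads2 (0.42), Steap4 (-0.25), Lyve1 (0.72), Fth1 (0.58), Cyp4a31 (0.85), Dusp1 (0.69) and Gbe1 (0.72). Dusp1 and Gbe1 kept their difference, and only their adjusted p in limma moved, from 0.049 to 0.055 and from 0.048 to 0.054. Called but moved by over 1.5 times were Car3 (1.40), Fmo2 (-1.57), Rassf4 (-1.78), Xaf1 (-0.70), Saa4 (-0.84), Zfp277 (0.86) and Mndal (3.63). A strain difference at a probe can lie in the amount of transcript or in the sequence under the probe, and which of these holds was not tested.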

How the data were processed

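RNA of whole tissue was hybridised to 72 Affymetrix arrays of 45101 probe sets. The deposited log2 values were made by the authors with RMA, per the submitters' processing notes; its version is not given in the sources used here. Each set of 9 arrays of a tissue and stage had been normalized apart, as equal values within a set showed. Of the probe sets, 34958 carried 1 gene symbol, 932 several and 9211 none; 34754 of the first matched RefSeq. They gave 18194 genes, each read by the probe set with the highest mean.

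Genes with a mean over the 9 P1 liver arrays above 6.62 were tested with limma 3.58.1 in R 4.3.3, with 3 strain means and Benjamini-Hochberg adjustment over all genes tested. Interactions over liver stages and between tissues were called at 0.05 and 2-fold. The scripts were tested on simulated data. Named genes were the 12 highest and 12 lowest called genes and up to 3 called genes of each list with the largest differences. Members of runs of 3 or more neighbours were added. So were the genes with the largest F statistics by stage, opposite calls at another stage or the largest gaps between tissues. Clone-like symbols, of which 24 were called, were left out of these choices except in the runs. Members named beyond that rule are said to be so or were not called. Same-numbered 129S2 and D2 arrays deviated together with correlations of -0.5, -0.08 and 0.04, so the numbers did not pair them. Promoter sequences are those of RefSeq (GRCm38.p6). Members and lists were chosen with earlier results of these data known. Alternatives for the filter, probe set, normalization, variance, samples, threshold and block were computed.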

Additional observations from a re-analysis of the deposited data

Results flagged for a closer look

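In liver, the strain difference changed between stages in a test of the interaction (limma, adjusted over all genes tested) for 11 genes singled out. They were chosen by the F statistic of that test or by opposite calls, not by the size of the gap alone. Dct (gap between stages 5.43) and Cyp2b13 (3.69) were thus not among them. The distance between the lowest and the highest difference over the stages was 6.3 log2 units for Cyp2b9, 4.28 for Cox6b2, 4.1 for Rassf4, 3.72 for H2-D1, 3.71 for Cyp2f2, 3.64 for Gdpd3 and 3.46 for Ankrd33b. By the mean over its probe sets Ankrd33b was at -0.04 at P1 and not called. It was 3.22 for Vnn1, which was at 0.38, -0.72, -2.27 and 0.95 from E14.5 to P90. It was 2.77 for Ces1e (0.28, -1.19, 1.58 and -0.16), 2.68 for Ces1g (0.87, -1.81, 0.47 and -0.86) and 2.58 for Efemp1 (-0.28, -1.75, -0.54 and 0.83). For H2-D1 the values were 3.03, 0.89, -0.69 and -0.41, read by a single probe set. The sets were normalized apart.

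At P1 the strain difference was tested between liver and brain. Liver minus brain, it was -4.86 for Cyp2b9, 4.24 for Slc15a2, 3.4 for Car3 and -2.99 for Cyp2f2, with adjusted p-values of 7.7e-11, 5.6e-07, 0.0073 and 3.9e-07 in limma.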

How the results depend on the processing

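The 687 genes called in P1 liver became 1262 probe sets with all probe sets tested apart (810 higher, 452 lower), 1370 with no fold minimum (712 and 658) and 173 with a 2-fold minimum (78 and 95), and the second probe set was called in the same direction in 58. The 301 lower genes became 194 with the stricter filter (8.2) and 188 with the mean of all probe sets, where H2-D1 turned from 0.89 to -0.94; the causes were not tested. Leaving out each array in turn gave 446 (without D2 replicate 1) to 786 genes, 226 to 454 higher and 214 to 332 lower; 245 were higher without 129S2 replicate 1. The lower genes of the Ifi200, Gbp, Irg and Trim30 families were then 2 to 4. With no fold minimum the genes shared with E14.5, P7 and P90 liver were 198, 406 and 357.

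With the replicate number as a block, although the numbers did not pair the arrays, 590 genes were called (326 higher, 264 lower), 581 of them among the 687, and the interaction by stage was called in 781 genes (251 of the 687). With strain and number as a block between tissues 213 genes were called, 176 of them called in P1 liver. Of 99 named genes, 56 kept their call without each array in turn, and 11 lost it under the block. Other settings kept the count within 1.5 times, from 479 to 907. With 3 arrays a strain, a median SE of 0.12 limits what could be called, and genes near the filter level are read close to background.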
